A study of Mus musculus with 11 samples.

Results

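The growth factor gene Igf2 was followed through the ventricles of mice whose hearts were normal, hypertrophic or dilated. Its members are the spots that the platform annotation names Igf2, which are 3 of the 17664 spots on the array (numbers 405, 6137 and 11009) and 1 of the 8106 named genes that could be tested. Igf2 was chosen because an earlier look at these data had found it among the 3 features (0.0248% of 12097) that passed as lower in dilated than in hypertrophic hearts. Its values in that contrast are therefore a description with no test, and the contrast of dilated with wild-type hearts shares the same dilated hearts and is not independent of the choice.

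Igf2 codes for insulin-like growth factor 2, a secreted peptide that drives growth before birth. It acts mainly through the receptor tyrosine kinases Igf1r and Insr, is taken up and degraded through Igf2r, and circulates bound to proteins of the Igfbp family. In the mouse the gene is imprinted and is read mainly from the paternal copy, beside the maternally read noncoding gene H19. After weaning its expression falls in most mouse tissues, and in the adult heart transcripts are known mainly from cells other than muscle cells.

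The 12 animals were male C57/BL6 mice of the TG1306/1R line at about 60 weeks of age, a line that overexpresses angiotensinogen, the precursor of angiotensin II, in the heart. WT1 to WT4 were littermates without the transgene (-/-), and Hyp1 to Hyp4 and Dil1 to Dil4 were heterozygous carriers (+/-) with a concentric hypertrophic or a dilated heart. Carrier hearts had been sorted by chamber shape, cardiac weight index and hypertrophic markers, so the groups are phenotypes selected within 1 genotype, and the promoter of the transgene is not given in the sources used here. RNA came from both ventricles and the septum, and each of 11 cDNA arrays compared 2 mice of the same number, called a set here, with 1 mouse in Cy3 and the other in Cy5.

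There were 4 arrays of WT with Hyp, 3 of WT with Dil and 4 of Hyp with Dil, and no WT and Dil array of set 2 was analysed here. The values are deposited log ratios, taken as log2 of Cy5 over Cy3. Neither the log base nor the direction is stated. The direction is only likely, from genes that should be high in these carriers. In Dil minus WT, Nppb, a hypertrophic marker, came out at 2.53 ± 0.32 (SE, limma adjusted p = 0.00866) and Agt, the angiotensinogen gene, at 2.15 ± 0.40 (adjusted p = 0.0311). Neither passed in Hyp minus WT, where Nppb was at 1.02 ± 0.30 (adjusted p = 0.900) and Agt at 2.09 ± 0.40 (adjusted p = 0.871). Agt gave 2.55, 2.29, 0.41 and 3.43 in sets 1 to 4 there, so Hyp3 was far lower than the other Hyp hearts against its WT partner. With the opposite direction every sign here would turn. If the values are natural logarithms, the folds are too small. Spot brightness was not used here, so the ratios show no levels, the labelled tissue could not be checked by the level of its markers, and the number of arrays limits the precision.

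The transcripts of Igf2 begin at several places. RefSeq (GRCm38.p6) lists 4 starts, shown because the array ratio cannot say which one changed. Whether each spot binds transcripts from all 4 starts was not checked. Each window runs 5′ to 3′, with 60 bases before the start in lower case and the first 20 transcribed bases in capitals. Start 1 is the furthest upstream.
Igf2 start 1, chr7:142666797-142666876, minus strand: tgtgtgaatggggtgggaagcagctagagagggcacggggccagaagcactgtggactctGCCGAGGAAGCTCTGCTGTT
Igf2 start 2, chr7:142661252-142661331, minus strand: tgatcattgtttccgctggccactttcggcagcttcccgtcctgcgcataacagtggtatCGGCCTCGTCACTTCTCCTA
Igf2 start 3, chr7:142658785-142658864, minus strand: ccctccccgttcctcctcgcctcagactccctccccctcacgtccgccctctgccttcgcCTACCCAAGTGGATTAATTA
Igf2 start 4, chr7:142657477-142657556, minus strand: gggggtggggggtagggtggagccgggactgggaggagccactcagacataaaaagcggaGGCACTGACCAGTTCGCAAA
The motif GGGCGG was found in the 300-base windows of starts 3 (1 match) and 4 (2 matches), searched on both strands, and in 35.7% of all 32851 windows of that length. TATAAA was found in none of the 4 and in 13.6% of all windows. The sequences of the printed clones were not used here. All 3 spots carry the same transcript in the annotation, and the clones are amplified double-stranded DNA.

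Igf2 was lower in dilated hearts than in either other group, and was close to equal in hypertrophic and wild-type hearts. Igf2 was 1.48-fold lower in Dil than in Hyp hearts (log2 difference -0.56 ± 0.09, SE of the fit, 4 mice per group) and 1.50-fold lower than in WT hearts (-0.59 ± 0.09). In the opposite direction of the ratio the same folds would be higher in Dil. Hyp minus WT was -0.02 ± 0.09. On every one of the 7 arrays that held a dilated heart all 3 spots were lower for it, 21 of 21 values. These 7 arrays hold only 4 dilated hearts, and the 3 spots are annotated to the same transcript. Igf2 was chosen for its lower value in Dil than in Hyp hearts, so this count is a description. In bulk tissue, fewer cells that express the gene and less RNA per cell cannot be told apart.

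The arrays that compared the carrier groups directly show the size of the difference in each pair of hearts. In set 1, Dil minus Hyp was -0.28 at spot 405, -0.20 at spot 6137 and -0.29 at spot 11009. In set 2 the same spots gave -0.86, -0.93 and -0.78. By the mean of the spots these were the closest and the widest of the 4 pairs. In set 3 they gave -0.46, -0.37 and -0.75, and in set 4 they gave -0.90, -1.02 and -0.48. In sets 3 and 4 spot 11009 stood apart from the other two, further from 0 in set 3 and nearer to 0 in set 4. The mean of the 4 arrays was -0.61 ± 0.28 (SD, n = 4).

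The 3 arrays of WT with Dil hearts ran the same way. In set 1, Dil minus WT was -0.43, -0.48 and -0.11 at spots 405, 6137 and 11009. In set 3 it was -0.99, -1.23 and -0.58, and in set 4 it was -0.30, -0.20 and -0.60. Set 3 held the widest difference at spots 405 and 6137, and set 4 at spot 11009. Their mean was -0.55 ± 0.33 (SD, n = 3).

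On the arrays of WT with Hyp hearts the spots lay on both sides of 0. Set 1 gave -0.10, -0.14 and -0.07 for Hyp minus WT at the 3 spots in the same order, and set 2 gave 0.05, 0.21 and -0.02. Set 3 gave 0.01, -0.17 and -0.33, and set 4 gave -0.14, -0.15 and -0.03. The mean was -0.07 ± 0.10 (SD, n = 4). As deposited, none of these 4 array means reached the nearest array mean of the dilated hearts, -0.26 in set 1. With the dye term taken out they overlapped, since Hyp minus WT of set 3 was then -0.28 and Dil minus WT of set 1 was -0.22.

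**Figure D1:**
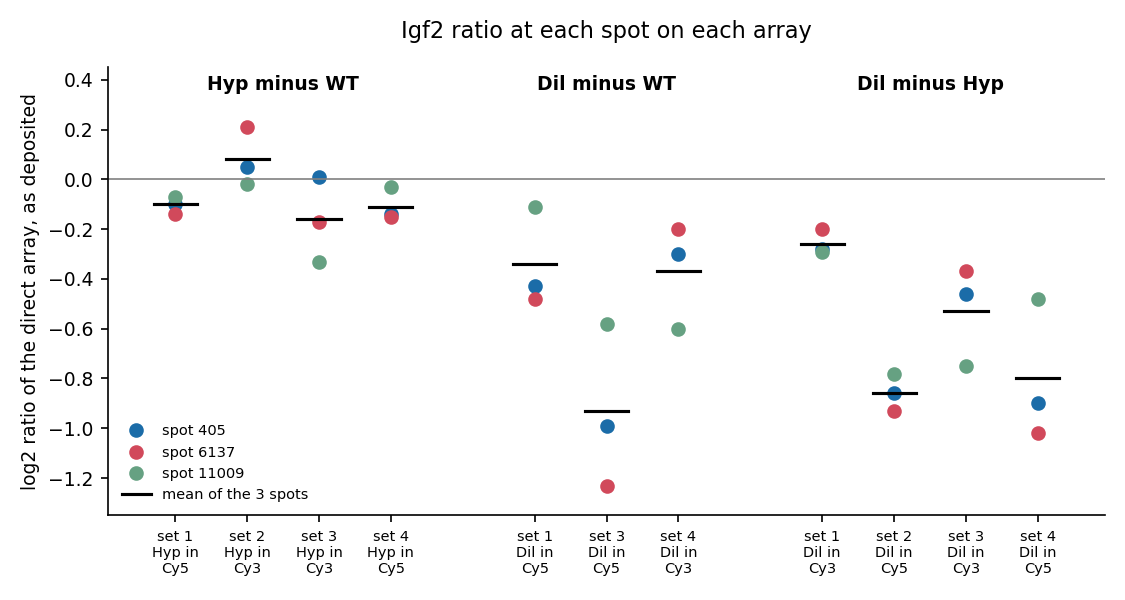
Igf2 ratio on each array, as the log2 difference named above each block (vertical axis) by set and by the dye of the first-named group (horizontal axis). Points are the 3 spots and bars their mean; all 21 points of the arrays with a dilated heart lie below 0, and the 4 means of Hyp minus WT lie between -0.16 and 0.08.

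The dye moved with the size of these ratios. Dil minus Hyp averaged -0.40 on the 2 arrays with the dilated heart in Cy3 and -0.83 on the 2 arrays with it in Cy5. The fit gave Igf2 a dye term, Cy5 minus Cy3, of -0.12 ± 0.05, and 23.8% of all features had a dye term further from 0. The spots differed in it, with -0.18 at spot 405, -0.25 at spot 6137 and 0.06 at spot 11009. With the dye terms taken out, the median SD over the 3 spots was 0.10 in place of 0.17. The terms were fitted to these same arrays, so a smaller median follows in part from the fit. On some arrays the spots moved apart, as in Hyp minus WT of set 1 (SD 0.14 in place of 0.03). Dil minus Hyp became -0.52 with Dil in Cy3 and -0.71 with Dil in Cy5. Each dye orientation therefore showed lower Igf2 in dilated hearts, with 2 pairs of mice in each.

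All arrays were then fitted together. Dil minus WT passed limma's test over 12097 features (-0.59 ± 0.09, 95% confidence interval -0.79 to -0.38, Benjamini-Hochberg adjusted p = 0.0143), as did 2.15% of the features (1.15% lower in Dil). Every spot fitted on its own passed as well among 16471 spots, with limma adjusted p = 0.0140 for spot 405 (-0.59 ± 0.09), 0.0253 for spot 6137 (-0.61 ± 0.11) and 0.0280 for spot 11009 (-0.56 ± 0.10). The call rested on few mice. Leaving out set 2 ended it (-0.56, limma adjusted p = 0.0512), as did leaving out set 3 (-0.47, adjusted p = 0.227) or set 4 (-0.61, adjusted p = 0.162), and it held with set 1 left out (-0.72, adjusted p = 0.0310). Scaling all arrays to 1 common spread ended it as well (-0.54, adjusted p = 0.0604), as did a fit of direct arrays alone (-0.50, adjusted p = 0.251).

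Hyp minus WT did not pass (-0.02 ± 0.09, 95% confidence interval -0.22 to 0.17, limma adjusted p = 0.999), and its spots were at -0.00, -0.02 and -0.05. In this contrast 0% of the features passed, with 533 of 12097 at an unadjusted p under 0.05. Agt, at 2.09 ± 0.40, did not pass in it either (limma adjusted p = 0.871), so not passing here does not show equal levels. The interval covers a change of Igf2 in hypertrophic hearts of up to 0.22 downward and 0.17 upward on the log2 scale. Dil minus Hyp was -0.56 ± 0.09, and the spots gave -0.58, -0.59 and -0.51. Over 15 alternatives to the processing the value stayed between -0.64 and -0.51.

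Solving the ratios within each set, with the dye term taken out, gave a value for each mouse against its WT partner. In set 1, Hyp minus WT was 0.06 and Dil minus WT was -0.27. In set 2 they were -0.04 and -0.78, in set 3 they were -0.24 and -0.85, and in set 4 they were 0.07 and -0.55. Igf2 was lowest in the dilated heart of all 4 sets, and Hyp3 was the hypertrophic heart furthest below its partner. Each against its own WT partner, the values of the 4 Dil hearts and the 4 Hyp hearts did not overlap, though -0.24 and -0.27 were close. Igf2 was chosen for being lower in Dil than in Hyp on these mice, so this separation follows in part from the choice. The within-set Dil minus Hyp values were -0.33, -0.74, -0.61 and -0.62.

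Where a set had all 3 arrays, the ratios around the loop from WT to Hyp to Dil and back should add to 0, so the remainder measures technical error, not the spread between mice. For Igf2, with the dye term taken out, it was -0.14 in set 1, -0.12 in set 3 and -0.18 in set 4. The median size over all features was 0.13, 0.17 and 0.18 in these sets. In set 1 displaced spots of the WT1 and Hyp1 array had been moved back by their match to the other arrays of the set. The remainders of set 1 are therefore not an independent measure of error. As deposited, with the dye left in, the Igf2 remainders were -0.02, 0.24 and -0.55. The Dil minus WT value of set 2 rests on 2 arrays through Hyp2 and has no loop to check it.

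The cardiac weight index, in mg of heart per g of body, was read beside these values. It was 4.2, 4.5, 4.5 and 4.9 mg/g in WT1 to WT4, and 5.8, 5.4, 5.45 and 5.5 mg/g in Hyp1 to Hyp4, where Hyp3 carries label values of 5.3 and 5.6 and their mean is used. In Dil1 to Dil4 it was 8.1, 7.8, 7.8 and 9.2 mg/g. Within the dilated group the order of Igf2 against the WT partner did not follow the order of the index. No array links mice of different sets, so a value against a WT partner also carries that partner's Igf2 level. The order of Igf2 among the Dil hearts themselves was not measured. Dil4 had the heaviest heart for its body and an Igf2 value of -0.55 against its WT partner, between those of Dil1 (-0.27, 8.1 mg/g) and of Dil2 and Dil3 (-0.78 and -0.85, 7.8 mg/g each). From WT to Hyp the index rose by 1.6, 0.9, 0.95 and 0.6 mg/g in sets 1 to 4 while Igf2 differed by 0.06, -0.04, -0.24 and 0.07. Hearts had been grouped in part by the index, the groups form separate clusters and each has 4 mice, so no correlation was computed.

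**Figure D2:**
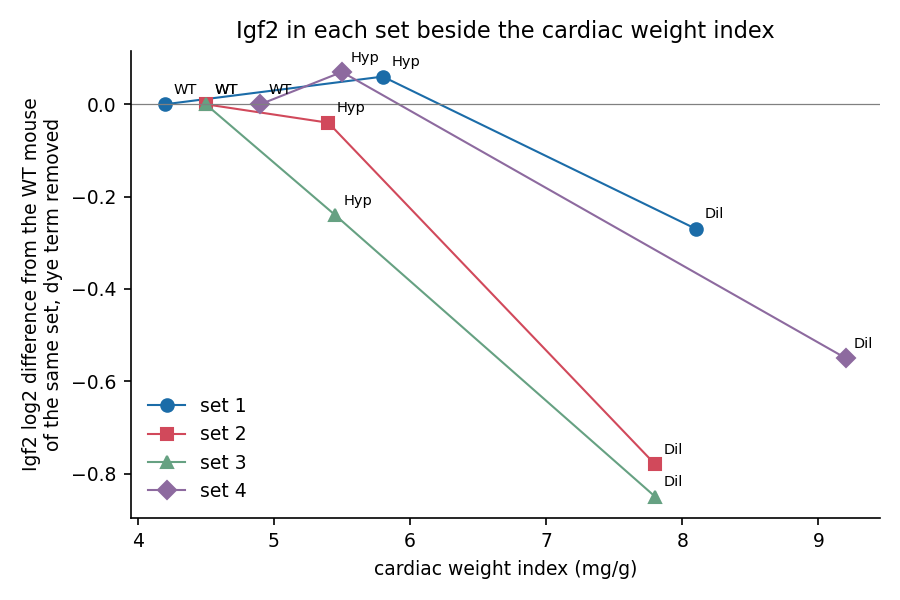
Igf2 log2 difference from the WT mouse of the same set, dye term removed (vertical axis), against the cardiac weight index in mg/g (horizontal axis), 1 line per set. The WT points are 0 by construction; the Hyp points lie between -0.24 and 0.07 at 5.4 to 5.8 mg/g, and the Dil points lie between -0.85 and -0.27 at 7.8 to 9.2 mg/g.

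The other measured ligands did not fall with Igf2. Igf1, the growth factor that dominates after birth, was at 0.27 ± 0.08 in Hyp minus WT (limma adjusted p = 0.900) and 0.24 ± 0.08 in Dil minus WT (adjusted p = 0.170), with neither passing. In Dil minus WT its sets gave 0.12, 0.02, 0.37 and 0.34, all on the opposite side of 0 from Igf2. Its 4 spots were all above 0 against WT, from 0.06 to 0.53 in Hyp and from 0.14 to 0.41 in Dil. Dil minus Hyp was -0.03 ± 0.08. Ins2, an insulin gene that neighbours Igf2 on the chromosome, was at 0.03 ± 0.10 in Hyp minus WT and 0.02 ± 0.10 in Dil minus WT.

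No receptor passed. Igf1r, the main signalling receptor, was at -0.03 ± 0.08 in Hyp minus WT, 0.21 ± 0.08 in Dil minus WT (limma adjusted p = 0.230) and 0.24 ± 0.08 in Dil minus Hyp (adjusted p = 0.308). Its 3 spots with values gave -0.00, 0.39 and 0.23 in Dil minus WT, so they did not read alike. Igf2r, the receptor that clears the peptide, was at 0.05 ± 0.07 and 0.03 ± 0.07 against WT in Hyp and Dil, with 4 spots from -0.09 to 0.19 in Dil minus WT. The insulin receptor Insr was at 0.24 ± 0.13 in Hyp and 0.19 ± 0.13 in Dil.

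Of the 5 measured binding proteins and proteases, which hold or release the ligands, 0 passed in any contrast, and 0 had an unadjusted limma p under 0.05. Over all features the share with such a p was 4.41% in Hyp minus WT, 16.2% in Dil minus WT and 9.64% in Dil minus Hyp. Igfbp3, the main carrier in the circulation, was at -0.21 ± 0.18 in Hyp minus WT and 0.13 ± 0.19 in Dil minus WT, and its Dil minus WT values split by set (-0.42, -0.25, 0.54 and 0.45). Igfbp5 was at 0.04 ± 0.12 and 0.23 ± 0.12, and Igfbp4 at 0.14 ± 0.15 and -0.12 ± 0.16. Igfbp1 (-0.04 ± 0.06 and -0.09 ± 0.06) and Pappa, a protease that cleaves binding proteins (0.08 ± 0.05 and 0.04 ± 0.06), had the smallest errors of this group. Igf2bp1 and Igf2bp3, which bind the Igf2 transcript, were at 0.02 ± 0.06 and -0.01 ± 0.06 in Dil minus WT.

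Downstream of the receptors 28 genes were measured, and 1 passed, in Dil minus WT alone, where 2.15% of all features passed. Grb10, an adaptor that binds and dampens the insulin and IGF receptors, rose in Dil minus WT by 0.43 ± 0.08 (limma adjusted p = 0.0311), with 0.34, 0.82, 0.29 and 0.45 in sets 1 to 4. Its spots gave 0.24 ± 0.11 and 0.59 ± 0.15. The call ended without any 1 of sets 1 to 4 (adjusted p = 0.0986, 0.0766, 0.210 and 0.266), with a common array spread (0.127), with the WT1 and Hyp1 array left out (0.0593) and on direct arrays alone (0.241). Grb10 was also above 0 in Hyp minus WT (0.25 ± 0.08), but it did not pass there (limma adjusted p = 0.977). Its sets in that contrast gave 0.24, 0.53, -0.03 and 0.36. Dil minus Hyp of Grb10 was 0.18 ± 0.08 (adjusted p = 0.498), so its rise was not particular to the dilated hearts. Eif4ebp1, a repressor of translation that the pathway inactivates, had the smallest p of these genes in Dil minus Hyp (0.49 ± 0.11, adjusted p = 0.147). Its sets gave 0.34, 0.24, 0.53 and 0.69.

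Over the whole pathway without Igf2, 40 of 64 listed genes were measured. In Hyp minus WT 0 passed limma's test and 2 had an unadjusted p under 0.05 (4.41% of all features did). In Dil minus WT 1 rose and 0 fell, beside 2.15% of all features, and 9 had an unadjusted p under 0.05 (16.2% of all features did). In Dil minus Hyp 0 passed, beside 0.165% of all features, and 6 had an unadjusted p under 0.05 (9.64% of all features did). The list medians were 0.04, 0.04 and -0.00 in the same order, against 0.00 for all features in each contrast. The lowest member in Dil minus Hyp was at -0.31, above the -0.56 of Igf2, but Igf2 was chosen on this contrast and its lower place follows from that. In Dil minus WT the lowest member, the adaptor gene Grb14, was at -0.52 ± 0.21 (limma adjusted p = 0.239), beside -0.59 for Igf2.

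**Figure D3:**
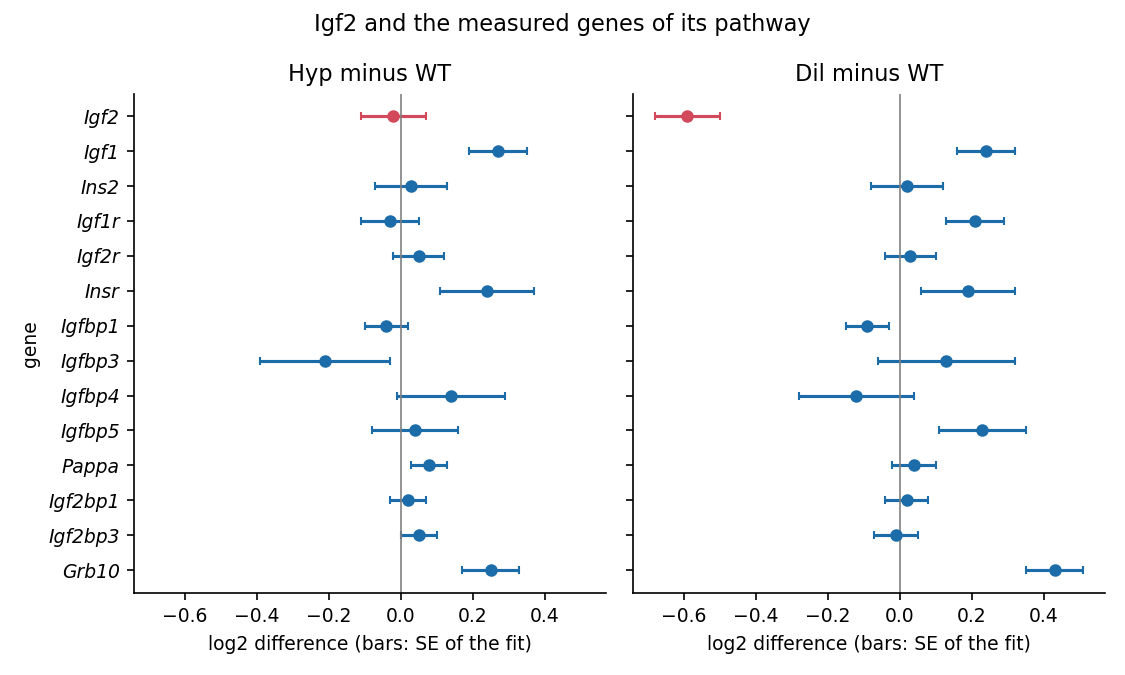
Log2 difference from WT (horizontal axes) of Igf2, the measured ligands, receptors, binding proteins and transcript-binding proteins, and Grb10 (vertical axis), in Hyp on the left and Dil on the right. Bars are the SE of the fit over 4 mice per group. Igf2 is near 0 in Hyp and at -0.59 in Dil, and Grb10 is at 0.25 in Hyp and 0.43 in Dil.

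H19, the noncoding neighbour that shares control elements with Igf2, had 8 spots. Its mean was at 0.16 ± 0.19 in Hyp minus WT, -0.24 ± 0.20 in Dil minus WT (limma adjusted p = 0.613) and -0.41 ± 0.19 in Dil minus Hyp (adjusted p = 0.534), so it did not pass. In Dil minus Hyp 7 of the 8 spots were below 0, from -0.72 to -0.32, and spot 11468 was at 0.04. Within sets Dil minus Hyp was -0.34, -0.06, -0.27 and -0.89, so in this contrast all 4 sets had the sign of Igf2 and they differed more in size. In Dil minus WT the sets of H19 lay on both sides of 0 (-0.25, 0.05, -0.79 and 0.18). Its spots there ran from -0.49 to 0.10. The larger error of H19 came with wide spread between sets, as in Hyp minus WT, which was -0.52 in set 3 and 1.07 in set 4.

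**Figure D4:**
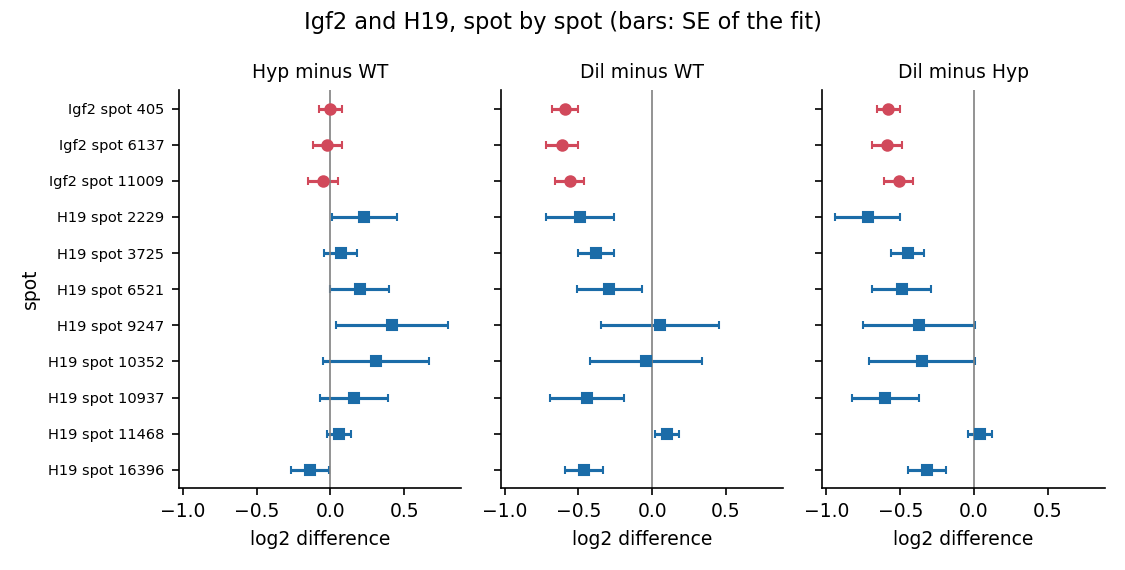
Log2 difference (horizontal axes) at each of the 3 Igf2 spots and 8 H19 spots (vertical axis) in the 3 contrasts, with the SE of a fit of all spots as bars. The Igf2 spots lie together at -0.61 to -0.51 in both contrasts with Dil. The H19 spots range from -0.49 to 0.10 in Dil minus WT and from -0.72 to 0.04 in Dil minus Hyp.

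Among 16 measured genes of the Igf2 region, H19 and Ins2 included, 0 passed limma's test in any contrast, and 4 had an unadjusted p under 0.05 in Dil minus WT and 2 in Dil minus Hyp, near the shares over all features (16.2% and 9.64%). The smallest p in Dil minus Hyp was that of Ctsd, a lysosomal protease, which lay on the opposite side of 0 from Igf2 (0.45 ± 0.15, adjusted p = 0.326). The other of these 2 was Mrpl23, on the side of Igf2 (-0.27 ± 0.09, adjusted p = 0.353). Of the 4 in Dil minus WT, Mrpl23 (-0.35 ± 0.10), Cdkn1c (-0.21 ± 0.08) and Nap1l4 (-0.16 ± 0.07) lay on the side of Igf2. Ctsd (0.53 ± 0.16) lay on the opposite side. Of 24 measured imprinted genes without Igf2, 1 rose in Dil minus WT, again Grb10, and 0 fell, beside 1% and 1.15% of all features. Ndn had the smallest p of them in Dil minus Hyp (-0.18 ± 0.08, adjusted p = 0.447).

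Among 10 other measured growth factors 1 passed, in Dil minus WT alone, where 2.15% of all features passed. This was Tgfb2, a transforming growth factor that acts on matrix-forming cells. It rose by 1.36 ± 0.23 (limma adjusted p = 0.0198), with 0.73, 0.50, 1.75 and 2.03 in sets 1 to 4. In Dil minus Hyp it was at 1.25 ± 0.22 (adjusted p = 0.0558). That call was lost when set 3 (adjusted p = 0.274) or set 4 (0.209) was left out, and on direct arrays alone (0.0639).

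Markers of cell types were read beside Igf2, and 0 of them passed limma's test in any contrast. Of all features 0% passed in Hyp minus WT, 2.15% in Dil minus WT and 0.165% in Dil minus Hyp. The 9 fibroblast markers measured of 11 had medians of 0.22 in Dil minus WT and 0.24 in Dil minus Hyp, and 3 had an unadjusted p under 0.05 in each (16.2% and 9.64% of all features did). Their set medians in Dil minus WT were -0.10, 0.04, 0.54 and 0.45, and the collagen gene Col3a1 had the smallest p of them in Dil minus Hyp (0.51 ± 0.16, adjusted p = 0.299). The 7 endothelial markers of 12 had medians of 0.02 in both contrasts, with Emcn at -0.14 ± 0.15 in Dil minus Hyp. Both smooth muscle markers measured of 5 lay below 0 in both contrasts. Myh11, a smooth muscle myosin gene, was at -0.73 ± 0.18 in Dil minus WT (adjusted p = 0.0595) and -0.47 ± 0.17 in Dil minus Hyp (adjusted p = 0.349). The 2 cardiomyocyte markers measured of 12 lay on opposite sides of 0 in both, with Actn2, a sarcomere gene, at 0.31 ± 0.17 in Dil minus Hyp. The 3 epicardial markers of 8 had medians of 0.16 and -0.04, with Aldh1a2 at 0.29 ± 0.16 in Dil minus Hyp.

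In the erythrocyte and adipocyte lists 3 genes lay on the same side of 0 in Dil minus Hyp in all 4 sets with an unadjusted limma p under 0.05. Over all features 9.64% had such a p in that contrast. The share that also kept to 1 side of 0 in all 4 sets was not computed, so this count has no matching background. Myh11 of the smooth muscle list met the same rule, with -0.84, -0.61, -0.19 and -0.14 in sets 1 to 4. Alas2, which starts heme synthesis in red blood cell precursors and was the only erythrocyte marker measured of 6, was at 0.59 ± 0.12 (limma adjusted p = 0.0845), with 0.81, 0.77, 0.43 and 0.32 in sets 1 to 4. Retn, which codes for the fat cell hormone resistin, was at -0.47 ± 0.12 (adjusted p = 0.171), with -0.39, -0.64, -0.55 and -0.25. Adipoq, the gene of the fat cell hormone adiponectin, was at -0.38 ± 0.14 (adjusted p = 0.386), with -0.56, -0.48, -0.07 and -0.24, and is named here after its values were seen. The 5 adipocyte markers measured of 6 had a median of 0.00 in that contrast and ranged from -0.47 to 0.12. Retn and Adipoq were the 2 below 0, and the 3 above it were Lep (0.05 ± 0.08), Plin1 (0.00 ± 0.07) and Fabp4 (0.12 ± 0.13). In Dil minus Hyp the pericyte marker Pdgfrb was at 0.15 ± 0.08 and the atrial marker Nr2f2 at -0.07 ± 0.06. The 2 leukocyte markers measured of 9 lay on opposite sides of 0 there, Cd14 at 0.09 ± 0.10 and Lyz2 at -0.07 ± 0.19. The part of cell composition in the Igf2 result was not tested.

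The genes whose 11 ratios ran most like those of Igf2 were found by the uncentred correlation across arrays, over 8105 genes, whose 5th and 95th percentiles were -0.68 and 0.68. The closest were Mtf2 (0.95), the lipid transfer protein gene Stard10 (0.94), Slc9a3r1 (0.93), Rbbp5 (0.91) and Pfdn6 (0.90). The most opposite were Asah1, an acid ceramidase (-0.94), talin, Tln1 (-0.93), Gtpbp4 (-0.93), Cdc26 (-0.93) and the glycogen branching enzyme gene Gbe1 (-0.92). Arrays share mice, so these are descriptions over 11 ratios of 12 mice.

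Genes with a like pattern differed in the size of their changes. In Dil minus WT, Stard10 was at -1.11 ± 0.12 and Mtf2 at -0.10 ± 0.05, and on the opposite side Tln1 was at 0.51 ± 0.08 and Gtpbp4 at 0.36 ± 0.08. These genes were picked for following or opposing Igf2 on the same arrays, so the values are given with no test. With the dye term of each gene taken out, 4 of the 5 closest genes were the same, with Pank4 (0.96) entering, but only 1 of the 5 most opposite, Asah1. Amot (-0.96), Mob1b, Camta1 and Uck2 entered there. Tln1, Gtpbp4, Cdc26 and Gbe1, which left, were each still at -0.92, so they crossed the cut at 5 genes with little change in value.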

How the data were processed

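Total RNA of each mouse, 25 µg per labelling, was turned into Cy3- or Cy5-labelled cDNA and hybridised to cDNA arrays, per the labels' protocols. The authors deposited 1 log ratio per spot and array, used here as log2 values. How background was corrected, how values were normalized and which genome build applies is not given in the sources used here. Column medians lay between -0.0114 and 0.0068.

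The column of WT1 and Hyp1 had displaced spots. Groups of 12 positions were matched to the ratio implied by the other set 1 arrays, their sum, 11520 spots were moved back by 8 blocks, and 3840 (21.7%) were left without a value there, which raised the correlation with that sum from 0.492 to 0.810. A group was moved where its correlation with that sum was higher after the move, so the rise follows from the rule and is no check on it. Of the Igf2 spots, 405 and 6137 were moved and 11009 was in its own place.

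Spots of a gene were averaged, and features needed values on 9 of 11 arrays. Generalised least squares was run on each, with Hyp, Dil and dye as terms and mice as random effects (shared variance ratio 0.303), moderated with limma 3.58.1 in R 4.3.3 and adjusted by Benjamini-Hochberg over 12097 features at 0.05. The fit was tested on simulated data. Mice, 4 per group, are the replicates, and the labels tie same-numbered mice together in no way other than the arrays they share.

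The members and lists were chosen with earlier results of these data known. Genes named with values were Igf2, all measured ligands, receptors, binding proteins and transcript-binding proteins, members of the other lists that passed or else had the smallest p in Dil minus Hyp, and the 5 genes most like and most opposite to Igf2. Beside these, H19, Grb14, Mrpl23, Cdkn1c, Nap1l4, Lyz2 and the adipocyte markers Adipoq, Lep, Plin1 and Fabp4 were named. Nppb and Agt were named for the direction of the ratios. Of the lymphocyte markers 0 were measured. Alternatives were other scalings, no dye term, no mouse effects, the displaced array as deposited or left out, direct arrays alone, leaving out each set, and a replicate block.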

Additional observations from a re-analysis of the deposited data

Results flagged for a closer look

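Among 42 groups of 4 set values, for 14 genes in 3 contrasts, 4 held a set far from the others by Dixon's test, which flags about 1 group in 20 by chance. Igf1 in Hyp minus WT was at 0.43 in set 1, above 0.19, 0.18 and 0.22 in sets 2 to 4. Igf1r in Hyp minus WT was at -0.34 in set 4, below 0.12, 0.05 and 0.06 in sets 1 to 3. Igfbp1 in Hyp minus WT was at 0.10 in set 3, above -0.10, -0.08 and -0.09 in the other sets. Igf2bp3 in Dil minus Hyp was at 0.06 in set 3, above -0.11, -0.09 and -0.09. No set of Igf2 itself stood apart in this way in any of the 3 contrasts.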

How the results depend on the processing

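Igf2 kept its sign in Dil minus Hyp (-0.64 to -0.51) and in Dil minus WT (-0.72 to -0.47) over all 15 alternatives, with leave-one-out ranges of -0.64 to -0.52 and -0.72 to -0.47. The Dil minus WT call ended in 6 of them, namely with scaled arrays (-0.54), direct arrays (-0.50), the replicate block (-0.61, limma adjusted p = 0.0965) and without set 2, 3 or 4. Igf2 in Hyp minus WT lay between -0.07 and 0.06 and turned sign without set 3 (0.06). The pathway count in Dil minus WT went from 1 to 0 with scaled arrays, with the WT1 and Hyp1 array left out, on direct arrays and with the replicate block, and ranged from 0 to 1 when a set was left out. Without set 2 the 1 passing gene was Eif4ebp1 in place of Grb10. The pathway counts of 0 in the other contrasts stayed at 0 in all 13 alternatives.

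Under the replicate block 6 features passed in Dil minus WT and 0 in Dil minus Hyp, against 260 and 20. Grb10 (0.48, adjusted p = 0.123) and Tgfb2 (1.25, adjusted p = 0.120) no longer passed under it. Same-numbered mice share only a number, and since every ratio lies within a set, whether they deviate together could not be measured. Leaving out a set gave 0 to 119 features in Dil minus WT (119, 83, 0 and 12 without sets 1 to 4) and 0 to 15 in Dil minus Hyp. The count in Dil minus WT was 70 with scaled arrays, 119 with no dye term, 94 with the WT1 and Hyp1 array left out and 7 on direct arrays. In Dil minus Hyp it was 52 with no mouse effects, 33 with that array as deposited, 6 with it left out and 0 on direct arrays. The cause of these changes was not tested. Spot brightness was not used here, so what signal over background limits is unknown.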
